A study of Mus musculus with 6 samples.

Results

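The immediate early genes are transcribed within minutes of a stimulus from promoters that are already bound by transcription factors, without new protein synthesis. Calcium entry, growth factors and synaptic activity reach them through MAP kinases, CREB and serum response factor, and in neurons they are widely used as readouts of recent activity. Their mRNAs are short-lived. This group held 10 genes, which were *Fos*, *Fosb*, *Jun*, *Junb*, *Egr1*, *Egr2*, *Arc*, *Nr4a1*, *Ier2* and *Dusp1*. Each was taken by an exact match of its gene name among the probes that are not controls, and each had 1 probe, which gave 10 of the 34797 gene names and 10 of the 55681 probes on the array.

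RNA came from the cerebellum of C57BL/6J pups at postnatal day 1, whose dams ate an AIN-93G amino acid diet with 2 mg or 20 mg of folic acid (FA) per kg from before mating through pregnancy. Each of the 6 single-colour Agilent arrays held a pool of 3 pups of 1 sex. For each sex there was 1 array of the 2 mg group and there were 2 arrays of the 20 mg group, called replicates 1 and 2. The purpose was to compare expression in the offspring between the maternal FA doses. All the groups shared the strain, the age and the base diet. Per the labels, RNA of the 20 mg group was extracted again from another batch of pools, without saying which replicate that was. Because the pups were pooled, the spread between pups was not measured, and at 2 mg the spread between pools was not measured either. A change in the number of cells of a type and a change in RNA per cell cannot be told apart in such pools.

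The array labelled female 20 mg replicate 2 stood apart from the others and is called the dim array. On this array 23.3% of all probes passed the scanner's limit for a signal well above background, and on the other arrays 51.0% to 71.9% did, and its mean Spearman rho with the others over all probes was 0.658, against 0.861 to 0.889. The lowest normalized log2 signal of a probe well above background was 8.82 there and 3.36 to 5.37 elsewhere. *Eif2s3y*, a gene of the Y chromosome, was well above background at 10.12 on that array, against 10.62 to 11.99 on the male arrays, 3.32 on the female 2 mg array and 4.04 on female 20 mg replicate 1. The brighter *Xist* probe, for the RNA of the inactive X chromosome, read 7.27 there without being well above background, against 9.67 and 10.84 on the other female arrays and 3.32 on every male array, so this array did not match its label in full. Values without it come from the other 5 arrays normalized anew. The tissue is cerebellum in the titles and whole brain in another field of the labels. Of 14 cerebellar marker genes, 13 were well above background on at least 5 arrays, and their summed signal lay between 42364 and 72212.

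Values below are log2 signals after quantile normalization over the 6 arrays, with signals under 10 raised to 10, which is 3.32 on the log2 scale. A probe counts as well above background where the scanner software flagged it so. The levels of different genes come from different probes and are not compared with each other.

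The sequences that bear on these values are of 2 kinds. The probes of *Junb* and *Ier2* are shown because these members were well above background on 0 and 2 of the 6 arrays, the fewest of the group. Both probes have 60 bases with a GC content of 55%, which is more than in 90.3% of the probes on the array, where the median was 43.3%. In mm9 the *Junb* probe lies on the minus strand at chr8:87501881-87501940 and the *Ier2* probe on the minus strand at chr8:87186214-87186273.
Junb probe: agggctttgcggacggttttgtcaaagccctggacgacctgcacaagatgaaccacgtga
Ier2 probe: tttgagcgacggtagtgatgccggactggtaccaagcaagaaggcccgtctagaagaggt

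The promoters of *Fos*, *Fosb* and *Dusp1* are shown because these were the members below the 2.5-fold limit in the female comparison. They are the 250 bases before the start of transcription from RefSeq in GRCm38.p6, on the strand of the gene. Capitals mark TGACG on either strand, the core of the cAMP response element that CREB binds, and overlapping matches are joined. *Fos* is at chr12:85473640-85473889 on the plus strand, *Fosb* at chr7:19310046-19310295 on the minus strand and *Dusp1* at chr17:26508473-26508722 on the minus strand.
Fos: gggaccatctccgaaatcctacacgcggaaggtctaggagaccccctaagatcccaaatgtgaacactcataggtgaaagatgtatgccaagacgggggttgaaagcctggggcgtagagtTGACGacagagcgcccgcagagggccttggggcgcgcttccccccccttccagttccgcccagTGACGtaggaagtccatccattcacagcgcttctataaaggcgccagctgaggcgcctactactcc
Fosb: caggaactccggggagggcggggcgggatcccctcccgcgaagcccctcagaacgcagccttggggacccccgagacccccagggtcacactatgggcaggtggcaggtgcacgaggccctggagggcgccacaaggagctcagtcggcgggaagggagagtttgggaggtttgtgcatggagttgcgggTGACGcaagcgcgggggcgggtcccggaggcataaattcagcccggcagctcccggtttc
Dusp1: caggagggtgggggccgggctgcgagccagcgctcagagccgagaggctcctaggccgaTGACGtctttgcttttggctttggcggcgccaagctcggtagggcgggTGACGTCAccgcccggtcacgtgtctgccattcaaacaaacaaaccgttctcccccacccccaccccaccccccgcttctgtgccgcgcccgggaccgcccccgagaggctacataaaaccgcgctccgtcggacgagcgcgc

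The promoter table held 7 of the 10 members, and *Egr1*, *Arc* and *Ier2* had no entry. TGACG occurred in the 250 bases before a start site of 6 of these 7 genes, all but *Jun*, and in 19.8% of the 27025 genes of the table. Its palindrome TGACGTCA occurred in *Dusp1* alone among the members, where it shares its letters with a TGACG match, and in 1.77% of all genes. TATAAA on the gene strand was present in *Fos*, 33 bases before the start, and in 8.94% of all genes. The CArG box, the site of serum response factor, was matched in *Egr2* and in 1.62% of all genes, and GCGNGGGCG, the EGR site, in *Fosb* and *Nr4a1* and in 5.33%. TGANTCA, the AP-1 site, was in no window of a member and in 7.82% of all genes. A match is a stretch of letters and was not tested for binding.

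*Fos* encodes the partner of the JUN proteins in AP-1 and is the classic marker of a recent stimulus. Its log2 level was 8.34 on the female 2 mg array, 6.94 on female 20 mg replicate 1 and 4.38 on the dim array. In male pups it was 7.15 at 2 mg and 7.08 and 5.99 on replicates 1 and 2 at 20 mg. The readings of the 4 arrays at 20 mg were all below both arrays at 2 mg, though that on the dim array was not well above background and the gap between male 2 mg and male 20 mg replicate 1 was 0.065. The female mean at 20 mg, 5.66 ± 1.81 (SD, n = 2), was 6.40-fold below the 2 mg array, a log2 difference of -2.68 with an SE of 2.21 and a 95% interval of -7.28 to 1.93 in limma. The same difference in male pups was -0.61, with an interval of -5.2 to 4.0. Neither dose difference passed the test, with adjusted p = 1 in both sexes in limma. Replicate 1, on which *Fos* was well above background, was 2.63-fold below the female 2 mg array, and on the dim array, where it was not, the log2 difference was -3.96.

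The *Fos* probe was the only one of the group that was spotted 10 times per array, so its reading error could be measured. Before normalization, the median spot signal was 699.8 at female 2 mg, 455.9 at female 20 mg replicate 1, 362.1 at male 2 mg, 162.1 and 49.4 at male 20 mg replicates 1 and 2, and 4.78 on the dim array. On the last of these it was not well above background. The spots of 1 array differed by a coefficient of variation of 3.49% to 9.54%, with 7 spots kept on male 20 mg replicate 2 after 3 outliers and 10 on every other array. No spot ranges of different arrays overlapped. The arrays also differed in brightness, with a median signal over all probes of 5.14 on the dim array and up to 161.6 on female 20 mg replicate 1. These spot signals are therefore not differences in *Fos* level between arrays. This spread covers the reading of 1 hybridization and not the difference between pools.

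**Figure D1:**
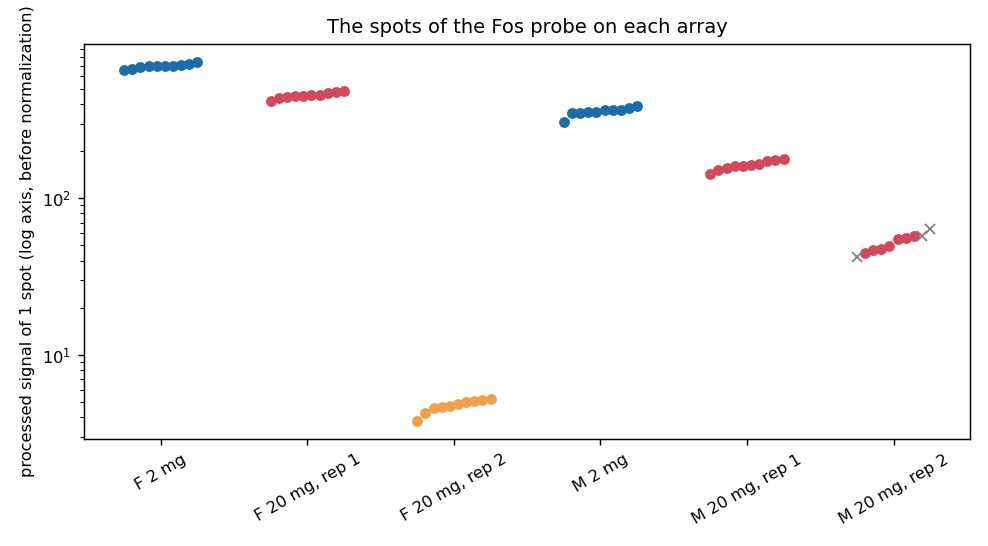
Processed signal of each spot of the Fos probe on a log axis, before normalization, by array (F female, M male, rep replicate; grey crosses are outlier spots that were left out). The spots of an array lie close together, and the arrays range from a median of 4.78 to a median of 699.8. The arrays also differ in brightness over all probes, which is not removed here.

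*Fosb*, another FOS family member, with a short splice form that accumulates under repeated stimulation, read 7.23 at female 2 mg, 6.62 on female 20 mg replicate 1 and 4.34 on the dim array. In male pups it read 6.87 at 2 mg and 5.97 and 7.82 at 20 mg, so the male replicates lay on either side of the 2 mg array. The female log2 difference was -1.75 (SE 2.22) and the male one 0.026 (SE 2.22), both with adjusted p = 1 in limma. Without the dim array, on which *Fosb* was not well above background, the female difference was -0.66. *Jun*, the main partner of FOS and well above background on every array, read 12.31, 11.67 and 11.47 in female pups and 12.14, 11.29 and 12.21 in male pups, in the order 2 mg, 20 mg replicate 1 and 20 mg replicate 2. Its female difference of -0.74 (SE 1.03) was seen on both 20 mg arrays, at -0.64 and -0.85, while the male replicates differed by -0.85 and 0.066. The adjusted p was 1 in each sex in limma.

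*Junb*, a JUN family member that often restrains *Jun*, was not well above background on any array. It read 3.43, 3.32 and 7.34 on the female arrays and 3.32, 4.91 and 3.32 on the male arrays in that same order. The 2 raised readings were on the dim array and on male 20 mg replicate 1, which shared a slide. Its female mean at 20 mg was 1.90 higher on the log2 scale, but without the dim array the difference was -0.29, and the gene was too dim to enter the limma test.

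*Egr1* and *Egr2* encode zinc finger transcription factors, and *Egr2* is also known for its role in hindbrain patterning and in Schwann cells. *Egr1* read 10.11, 9.56 and 9.01 in female pups and 9.68, 9.34 and 8.96 in male pups. Like *Fos*, it was lower on all 4 arrays at 20 mg than on both at 2 mg, although 9.56 and 9.68 differed by 0.12 and the reading on the dim array was not well above background. Its differences were -0.82 (SE 1.39) in female and -0.53 (SE 1.39) in male pups, with adjusted p = 1 in limma, and without the dim array the female one was -0.53. *Egr2* read 6.66, 6.89 and 6.23 in female and 6.43, 6.73 and 5.50 in male pups, and in each sex replicate 1 was above the 2 mg array and replicate 2 below it. The female difference of *Egr2* was -0.11, and 0.24 without the dim array.

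*Nr4a1*, an orphan nuclear receptor, read 11.03, 10.48 and 11.85 in female and 10.63, 10.30 and 10.64 in male pups and was well above background throughout. *Arc*, which acts at synapses in the removal of AMPA receptors, read 7.65, 7.49 and 8.68 in female and 7.64, 7.61 and 7.27 in male pups. Both were highest on the dim array, where *Arc* was not well above background. The dose differences of *Nr4a1* were 0.13 in female and -0.16 in male pups (SE 1.16 each) and those of *Arc* 0.44 and -0.19 (SE 1.95 each), all with adjusted p = 1 in limma. The female differences changed sign when the dim array was left out, to -0.53 for *Nr4a1* and -0.16 for *Arc*.

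*Dusp1* encodes a phosphatase that switches MAP kinases off and so limits the signal that induces these genes. It read 9.17 at female 2 mg, 8.30 on female 20 mg replicate 1 and 6.20 on the dim array, below the background limit. In male pups it read 8.86 at 2 mg and 9.25 and 8.97 at 20 mg. Both female arrays at 20 mg were below their 2 mg array, with log2 differences of -0.87 and -2.97, and both male arrays were above theirs, with 0.39 and 0.11. The female difference was -1.92 (SE 1.73, interval -5.52 to 1.68) and the male one 0.25 (SE 1.73), with adjusted p = 1 in limma. The female value was -0.88 when the dim array was left out.

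*Ier2*, which encodes a small nuclear protein, was well above background on 2 arrays, female 20 mg replicate 1 at 4.28 and male 20 mg replicate 1 at 5.77. It lay at the floor of 3.32 on both 2 mg arrays and read 5.71 and 4.63 on replicate 2 of the female and male 20 mg arrays. The readings at 20 mg were all above the floor, but 2 of the 4 were not well above background, so no fold is given. The fitted log2 differences were 1.68 and 1.88 (SE 1.36 each), with adjusted p = 1 in limma. In the joint comparison of the doses over both sexes the difference was 1.78, with an adjusted p of 1.00 in limma and an unadjusted p of 0.078, which was the smallest of a member. *Ier2* entered that test only through 2 arrays at 20 mg, and the floor set both of its 2 mg values. No weight is therefore placed on this p. Under normexp background correction the differences came to 0.55 in each sex, with the mean signal and no background correction to 0.20 in female and 0.51 in male pups, and without the dim array to 1.25 in female pups.

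**Figure D2:**
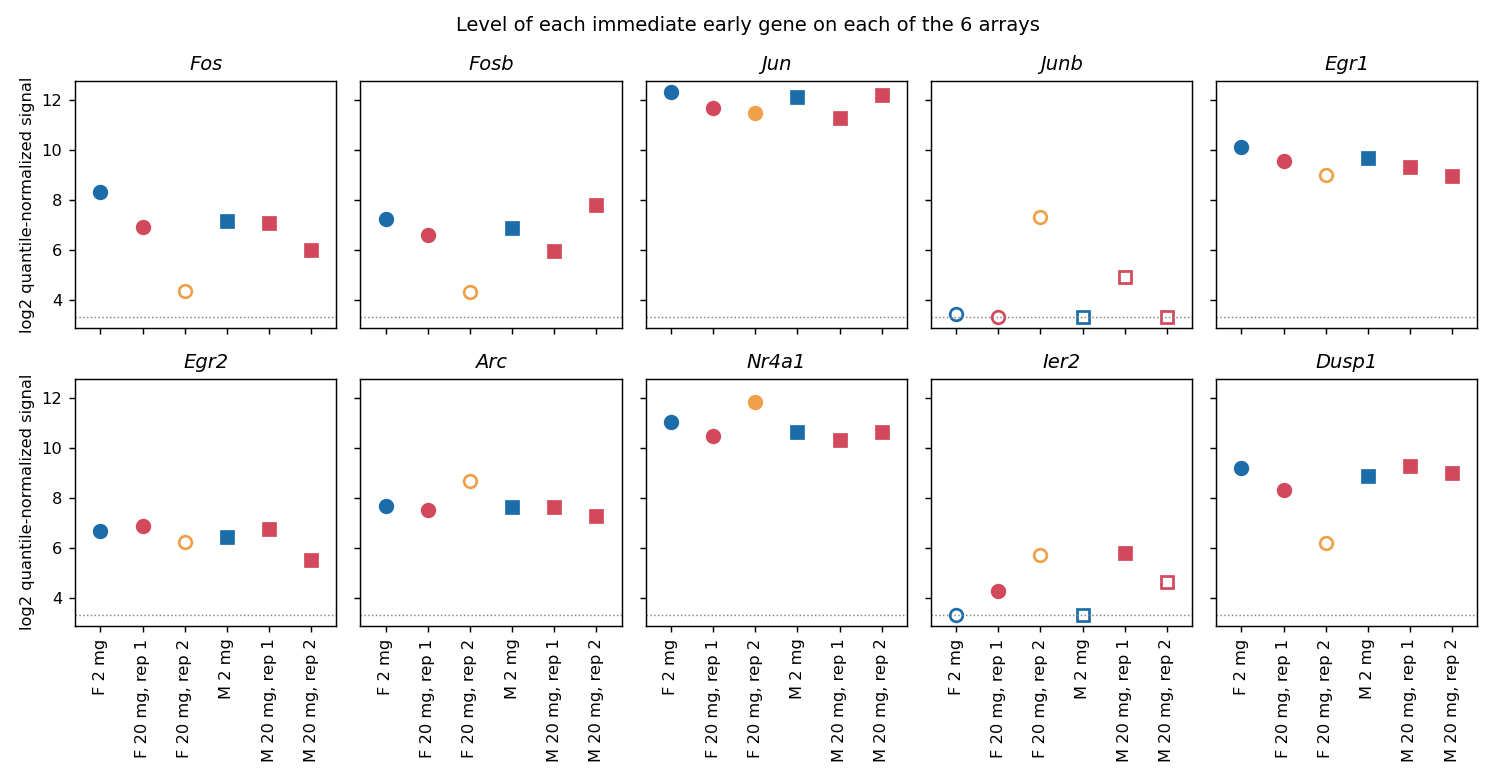
Log2 quantile-normalized signal (y axis) of each member on each array (x axis; F female, M male, rep replicate). Filled points were well above background and open points were not, circles are female and squares male pools, blue is 2 mg, red 20 mg and orange the dim array; the dotted line is the floor of 3.32. Junb has open points only, and the orange points are filled for Jun and Nr4a1 alone.

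By count, the 20 mg group of female pups had 3 members down-regulated by at least 2.5-fold with the variation filter, *Fos*, *Fosb* and *Dusp1*, and 1 up-regulated, *Junb*. Over all 55681 probes the same rule called 10.3% lower and 8.65% higher, and the male rule called 2.17% lower and 1.42% higher. No member was called in male pups in either direction. Normalized anew without the dim array, 1 member was lower in female pups, *Fos* at -1.48, and none was higher, while the rule called 2.58% of all probes lower and 1.77% higher. *Ier2* was past the limit upwards in both sexes, but only against 2 mg values that the floor had set, and it did not pass the variation filter. Without that filter the counts upwards were 1 in male and 2 in female pups.

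In limma, 9 members were tested among 37238 probes, with *Junb* left out. At an adjusted p under 0.05, limma called 0 members and 0% of all probes in the male, the female, the joint and the interaction comparison. At an unadjusted p under 0.05 there were 74, 161, 144 and 51 probes in the same order, none of them a member. With 1 array at 2 mg per sex and 2 residual degrees of freedom, the intervals of the members were wide, so a change of several fold in either direction was not detectable for most of them.

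The readings of the doses did not overlap for 3 of the 10 members, as far as readings that were not well above background can be ordered. *Fos* and *Egr1* were below both 2 mg arrays on all 4 arrays at 20 mg, as were 4.6% of the tested probes, with the dim array's readings of both genes not well above background. *Ier2* was above both, as were 3.74%, with 4 of its 6 readings not well above background. Without the dim array, *Fos*, *Egr1* and *Arc* were below on all 3 other arrays at 20 mg, as were 7.05% of the tested probes, and *Ier2* was above, as were 8.04%. The median log2 difference of the 10 members was -0.18 in male pups, with 6 lower, against -0.039 over all tested probes. In female pups it was -0.42, with 6 lower, against -0.21. Of all tested probes, 52.6% were lower in male and 57.8% in female pups, so the counts of 6 lay near these shares. For the 8 members well above background on at least 5 arrays, the medians were -0.25 in male and -0.78 in female pups. This choice was made after seeing the data. It leaves out *Junb* and *Ier2*, which both had a higher mean at 20 mg in each sex.

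**Figure D3:**
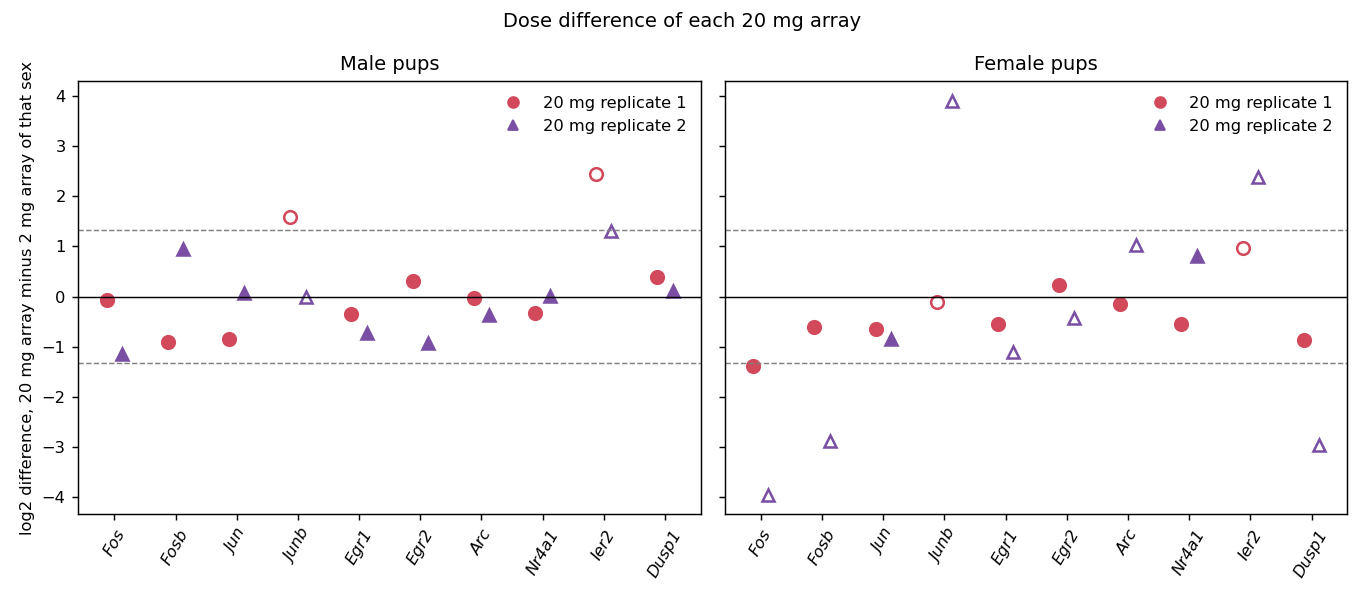
Log2 difference (y axis) of each 20 mg array from the 2 mg array of its sex for each member (x axis), with male pups left and female pups right; circles are replicate 1, triangles replicate 2, and open symbols mark pairs in which 1 or both arrays were not well above background. Dashed lines mark 2.5-fold. In female pups the largest departures are open triangles, which belong to the dim array.

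Marker genes of other cell types were summed on each array. The summed signal of 7 choroid plexus markers was 5958 and 27353 on the female and male 2 mg arrays and 32522 to 81660 on the 20 mg arrays, the only one of these sums without overlap between the doses. A single gene, *Ttr*, made up 39.8% to 89.7% of it, so the sum and its lack of overlap rest largely on this gene. Of the 7 markers, 6 had a higher mean at 20 mg in female pups, all but *Kl*, and 5 in male pups, all but *Aqp1* and *Otx2*. In male pups *Aqp1* read 8.66 at 2 mg and 7.78 and 7.75 at 20 mg. The limma test called none of the 7. All 7 were tested and 6 were well above background on at least 5 arrays. The 7 endothelial markers summed to 11993 at female 2 mg, 8062 on female 20 mg replicate 1 and 3617 on the dim array, and to 11544, 10293 and 25365 on the male arrays in the same order. The 10 forebrain markers ranged from 3096 to 22297, with 11092 at female 2 mg, 22297 at female 20 mg replicate 1 and 7874 at male 2 mg. The 7 microglial markers lay between 4743 and 6377 on 5 arrays and at 17349 on the dim array. The 7 meningeal markers summed to 12148 to 30360 and those of red blood cells to 107103 to 360809. The part of these cells in the levels of the immediate early genes was not tested.

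The 6 arrays lay on 3 slides, and only 1 slide held both doses, which carried replicate 1 of the female 20 mg group beside both 2 mg arrays. On this slide 7 of the 8 well measured members were lower on female 20 mg replicate 1 than on female 2 mg, all but *Egr2*, with a median of -0.58 against 0.028 over all tested probes, of which 47.7% were lower. Among all 10 members 8 were lower, with a median of -0.55. *Fos* was the only one past 2.5-fold, as were 3.07% of the tested probes downwards. The differences were -0.87 for *Dusp1*, -0.64 for *Jun*, -0.61 for *Fosb*, -0.56 for *Nr4a1*, -0.54 for *Egr1* and -0.15 for *Arc*. With 1 array on each side this has no replicate check.

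The female 2 mg array was also above the male 2 mg array for all 8 well measured members. Their median difference was 0.33 against -0.00027 over the tested probes, of which 49.8% were higher. The difference was 1.19 for *Fos*, which exceeded that of 99.0% of the tested probes, and between 0.014 for *Arc* and 0.42 for *Egr1* for the others. Both comparisons share the female 2 mg array and are not independent of each other. Set against the male 2 mg array instead, female 20 mg replicate 1 was lower for the same number of these members, 7 of 8, with a smaller median of -0.18, and none was past 2.5-fold. *Fos* differed there by -0.20 and *Dusp1* by -0.57.

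**Figure D4:**
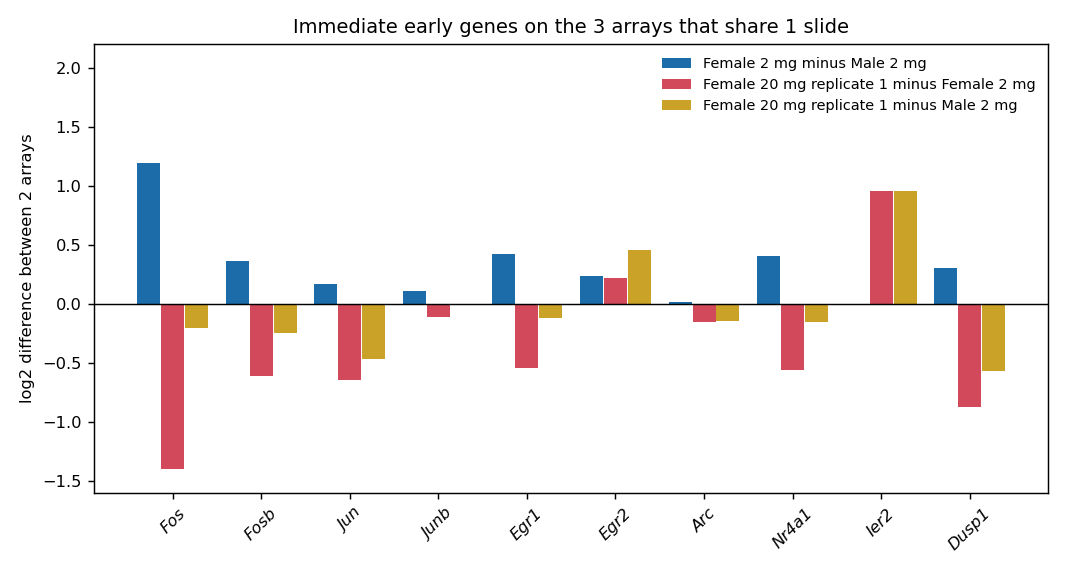
Log2 difference (y axis) between pairs of the 3 arrays that shared 1 slide, for each member (x axis), with 1 array on each side and no error. Blue bars, female over male pups at 2 mg, reach 1.19 for Fos, and red bars, 20 mg over 2 mg in female pups, reach -1.39; yellow bars set the same 20 mg array against male 2 mg.

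With slide as a fixed block and additive terms for dose and sex, the joint dose difference was -0.42 (SE 2.26) for *Fos*, against -1.64 (SE 1.57) without the block. For *Dusp1* it was -0.031 (SE 1.73), against -0.84 (SE 1.22), and for *Ier2* 0.97 (SE 1.09), against 1.78 (SE 0.96). Every adjusted p of a member was 1.00 in limma with the block. Slide and dose cannot be told apart for the other 3 arrays at 20 mg, which lay on slides without a 2 mg array. The dose term of the block fit therefore rests on female 20 mg replicate 1. Its sex term rests in part on the dim array against male 20 mg replicate 1, which shared a slide. The dim array thus enters the values with the block, and their distance from those without it is not due to slide alone. Female 20 mg replicate 1 minus female 2 mg was -1.39 for *Fos*, -0.87 for *Dusp1* and 0.96 for *Ier2*.

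Whether the members moved together was described by Pearson's r between the log2 levels of each pair over the 6 arrays. The 45 pairs had a median r of -0.132, from -0.941 between *Fosb* and *Junb* to 0.918 between *Junb* and *Arc*, and 20 were above 0. The median r of the members with all tested probes was 0.141. *Fos* had r = 0.871 with *Egr1*, 0.839 with *Dusp1*, 0.648 with *Fosb* and 0.444 with *Jun*, whereas *Arc* and *Nr4a1* (r = 0.878 with each other) had r of -0.894 and -0.835 with *Dusp1*. Over the 5 arrays without the dim array, *Fos* had r = 0.956 with *Egr1*, 0.264 with *Dusp1* and -0.245 with *Fosb*, and *Arc* and *Nr4a1* had r of 0.252 and 0.198 with *Dusp1*, so the sign of several pairs turned on that array. The arrays share normalization and slides, and these values are a description over 6 or 5 points. For the 8 well measured members the median of the 28 pairs was 0.0833, against 0.167 with all tested probes. Without the dim array it was 0.225, with 19 pairs above 0, against 0.0335 with all tested probes.

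**Figure D5:**
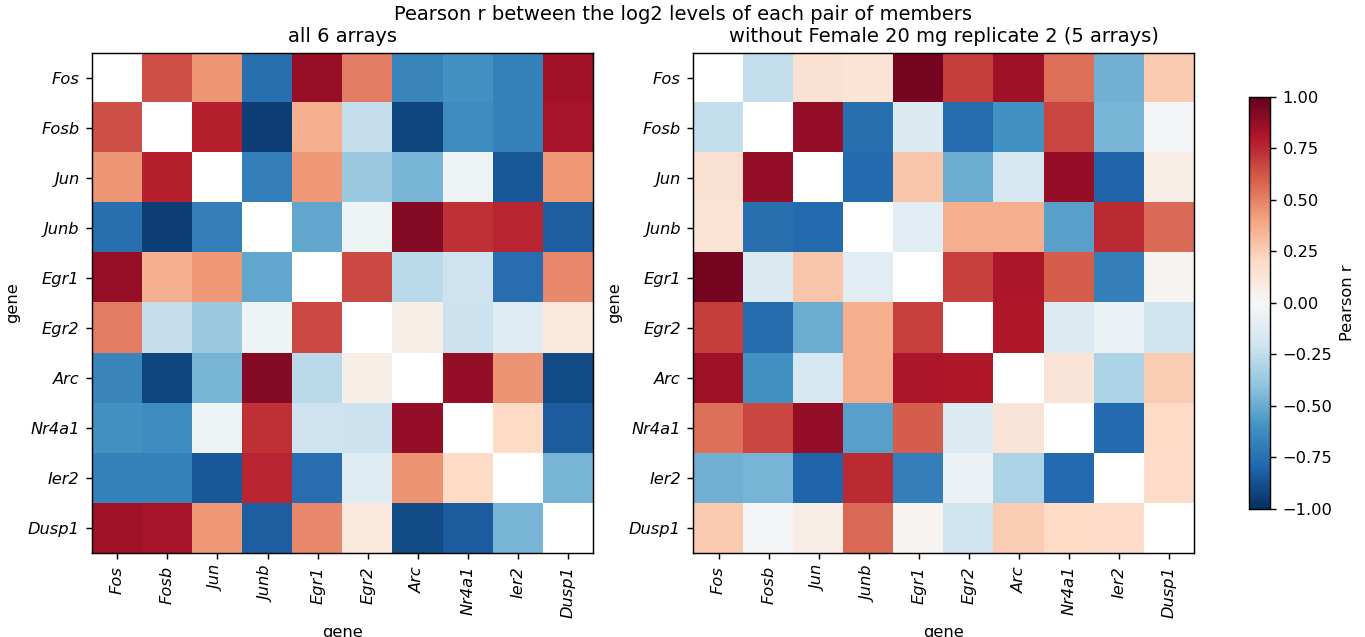
Pearson r between the log2 levels of each pair of members, as a colour from -1 (blue) to 1 (red), over all 6 arrays on the left and over 5 arrays normalized anew without the dim array on the right. The median over all pairs is -0.132 on the left and 0.130 on the right, and the blocks of like sign on the left differ from those on the right.

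Averaged over the 8 well measured members, each centred on its own mean, the female 2 mg array lay 0.59 above the mean of the arrays, with 7 of the 8 above their own mean. Male 2 mg lay 0.20 above, with 6 of 8, while all tested probes averaged 0.11 on each 2 mg array. The 3 other arrays at 20 mg lay between -0.058 and 0.017 and the dim array at -0.71, where all tested probes averaged -0.44. Over 5 arrays without the last, the female 2 mg array lay 0.46 above, with all 8 above their own mean, and male 2 mg 0.058 above, with 5 of 8. Like transcripts were sought with another average, that of all 10 members centred in the same way, which includes *Junb* and *Ier2*. Those most like this average of 10 over the 6 arrays, among 25990 probes well above background on at least 5, were *Rps29* (r = 0.979), *Slc6a9* (0.961), *Cntnap2* (0.949), *Ppp1r12a* (0.947), *Ywhaz* (0.947), *Dhx40* (0.942), *Nsdhl* (0.941) and *Hbb-b1* (0.938). In all, 28 probes reached 0.9. Over the 5 arrays none of these 8 was among the 8 most like the average of all 10 members.

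Other genes of the same pathway were described from lists, and the genes of these lists named here, apart from *Nfkb1*, were chosen after their values were seen. Of 44 other immediate early genes, all on the array and 40 tested, 7 were lower and 1 higher in female pups by the fold rule and 0 in male pups, with median differences of -0.28 and -0.076, against 10.3% lower and 8.65% higher over all probes in female pups. Without the dim array 0 of the 44 were called in either sex. The 7 were *Ier3*, *Btg2*, *Klf6*, *Trib1*, *Csrnp1*, *Arl4d* and *Crem*, and the 1 was *Fosl1*, whose raised reading was on the dim array and not well above background. For each of the 7 the low reading was on the dim array and not well above background. None was past 2.5-fold on both female arrays at 20 mg. *Klf6*, a zinc finger factor, read 12.96, 12.47 and 8.66 on the female arrays, and *Csrnp1* read 8.29, 7.54 and the floor of 3.32. On the slide that held both doses 21 were lower and 22 higher at female 20 mg replicate 1 than at female 2 mg. Their median was 0.027, whereas 8 of all 10 members were lower, with a median of -0.55. Both sets hold genes that were not well above background. The receptor *Nr4a2*, of the family of *Nr4a1*, read 10.93, 9.88 and 8.51 in female and 10.27, 10.25 and 9.55 in male pups. It was not called, and its reading of 8.51 on the dim array was not well above background. *Npas4*, which neuronal activity induces, read between 8.26 and 9.54 on the 6 arrays.

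Among 10 other dual-specificity phosphatases, *Dusp4*, *Dusp8* and *Dusp14* were lower in female pups by the fold rule and none was higher, and in male pups *Dusp7* was higher by 1.66 and none was lower. The low readings of the 3 were on the dim array, without which 0 of the 10 were called in female pups. Of 34 kinases and transcription factors upstream of the group, 6 were lower in female pups, *Map2k1*, *Camk2a*, *Mapk8*, *Elk4*, *Ep300* and *Nfkb1*, and 1 in male pups, *Nfkb1*, with none higher. All 6 had their lowest female reading on the dim array, and without it none of them was called in female pups, where 1 other gene was lower and 1 higher, *Prkaca* and *Mef2c*. *Nfkb1*, a subunit of NF-kappa B, was the only one of them past 2.5-fold on both 20 mg arrays of a sex, with 6.81 at male 2 mg and 5.01 and 5.36 at 20 mg. Of 15 AP-1 dimer partners, *Batf3* and *Mafk* were lower and *Fosl1* was higher in female pups and 0 were called in male pups. Of 9 heat shock and stress genes on the array, *Ddit3* was lower in female pups and 0 were called in male pups. The readings that set these 4 calls were on the dim array, and without it 0 genes of both lists were called. These female counts stand against the same 10.3% and 8.65% of all probes. The limma test called 0 genes of these lists.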

How the data were processed

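RNA of pooled cerebella, 3 pups per array, was labelled with cyanine-3 from an oligo-dT primer and hybridized to 6 Agilent mouse arrays with probe positions in mm9. Each intensity in the deposited scanner files is the authors' output of Agilent Feature Extraction 10.7.3.1, which subtracts the background and flags outliers and spots well above background. The log2 values in the authors' deposited table were quantile normalized with a floor of 10 in BRB-ArrayTools, and served as an alternative. Groups follow the sex and dose in the sample titles, and 0 columns of samples outside the study were used. The depth of an array has no count, so the number of arrays limits the precision.

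Here outlier spots were left out, spots of a probe were averaged, and log2 signals underwent quantile normalization across the 6 arrays, after which a floor of 10 was applied. Within each sex, the fold rule asked for 2.5-fold between the mean of both 20 mg arrays and the 2 mg array, among probes whose variance over the arrays exceeded the median variance at a chi-square p of 0.05 with at most 50% of values missing (15247 probes). This follows the rule of the study's methods. Applied here, it called more probes in each sex and direction than the paper reported transcripts. The gap was widest for those higher in female pups, 4815 here. Probes well above background on at least 2 arrays were fitted in limma 3.58.1 (R 4.3.3) with 4 groups, an empirical Bayes trend and Benjamini-Hochberg adjustment at 0.05. The lone 2 mg array of a sex is assumed to vary like the 20 mg arrays. The fit was run on simulated data with known changes and equal noise on every array. These had no dim array and no slide differences. That run checked the code and not how the fit behaves on data like these. P-values of this fit measure the spread between the 2 arrays at 20 mg of each sex, which may in part be technical. Both sexes share 1 estimate of it, so the dim array also widens the errors of the male comparisons. For *Dusp1* the SD at 20 mg was 0.20 in male and 1.48 in female pups, and the SE was 1.73 in each. The summed signal of a list is the sum of its genes' normalized signals on the linear scale.

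The members, the lists and the rules were chosen with earlier results of these data known. Named by rule were all members, the genes past 2.5-fold on both 20 mg arrays of a sex in each pathway list (up to 4, well above background at 1 dose), and the 8 genes most like the members' average. From the pathway lists this rule gave *Nfkb1* alone, and their other genes were named after their values were seen. Probe sequences came from the scanner files and promoters from a RefSeq table of GRCm38.p6. Alternatives were the normalization, the floor, the background correction, the deposited log2 table, the arrays left out in turn, the scan day, the filters, the slide, the replicate number as a block and Spearman's rho.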

Additional observations from a re-analysis of the deposited data

Results flagged for a closer look

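*Dusp1* was singled out because its dose difference ran in opposite directions in the sexes, with both female arrays at 20 mg below the female 2 mg array and both male arrays above the male one. The female difference minus the male difference was -2.17 on the log2 scale. The interaction term in limma for this difference had an SE of 2.45, a 95% interval of -7.26 to 2.92 and an adjusted p of 1.00. Without the array labelled female 20 mg replicate 2, on which *Dusp1* was not well above background, the female difference was -0.88. On the slide that held both doses the *Dusp1* difference between female 20 mg replicate 1 and female 2 mg was -0.87, and no male array at 20 mg lay on that slide.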

How the results depend on the processing

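No member was called by limma under any alternative that was run. With the replicate number of the 20 mg arrays as a block (replicate block), 0 members were called in each of the 4 comparisons. The 2 mg arrays carry no number, and the labels do not say that a number is shared by the sexes, so a paired reading rests on the numbers alone. Slide as a random block could not be fitted, since no correlation could be estimated from 2 residual degrees of freedom. A 75th percentile shift left 0 members lower and 0 higher in female pups by the fold rule. There were 0 higher with the floor before quantile normalization, with normexp and with the mean signal, and 2 with the authors' deposited table and with no variation filter. Arrays of the later scan day alone gave 1 lower in female and 1 higher in male pups, and the deposited table and no variation filter each gave 1 higher in male pups. Leaving out 1 array at a time gave 1 to 3 lower and 0 to 2 higher in female pups and 0 lower and 0 to 2 higher in male pups, with the low of 1 and of 0 in female pups reached without the array labelled female 20 mg replicate 2, and the 2 higher without male 20 mg replicate 2.

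The median member difference in male pups was -0.22 with the 75th percentile shift, 0.0073 on the later scan day, -0.25 for members well above background on at least 5 arrays (chosen after seeing the data), and -0.18 to 0.0080 with 1 array left out, the highest without male 20 mg replicate 1. It was -0.046 without male 20 mg replicate 2. In female pups it was -0.079 with the shift, -0.78 with the floor first, -0.79 in the deposited table, -0.53 on the later scan day, -0.78 for the well measured members, and -0.64 to -0.43 with 1 array left out, the lowest without female 20 mg replicate 1. The median correlation was 0.141 with the shift, -0.0270 with the mean signal, 0.306 on the later scan day, 0.0304 by Spearman's rho, 0.0833 for the well measured members, and -0.195 to 0.130 with 1 array left out. The *Junb* difference in female pups changed sign, to -0.36 on the later scan day and to -0.29 without the array labelled female 20 mg replicate 2, the array that carried its raised reading, against 3.63 without female 20 mg replicate 1. The *Fos* difference in female pups lay between -3.86 and -1.43 under the 10 alternatives. The cause of the other changes was not tested. Signals of the dim array lie mostly under its background limit, which bounds what can be read from it.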
